A study of Mus musculus with 9 samples.

Results

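The genes described here are 10 components of myostatin and activin signalling, taken by gene symbol from 14300 protein-coding genes listed in both deposited tables of a study of the androgen receptor in skeletal muscle. They are the ligand gene Mstn, the genes of the secreted proteins Fst, Fstl1 and Fstl3, the receptor genes Acvr2a, Acvr2b and Acvr1b, and the signal transducer genes Smad2, Smad3 and Smad7, and all 10 were found in both tables. RNA came from the tibialis anterior, a fast muscle of the lower leg, of male C57BL/6J mice, with 3 libraries in each of 3 groups. Control mice were labelled as such and are called sham in the tables, ORX mice were orchiectomised, and ORX+DHT mice were orchiectomised and given dihydrotestosterone (DHT), a potent androgen. Tissue was taken 4 weeks after treatment. The age of the mice and the dose of DHT are not given in the sources used here. The labels call the replicates biological without naming the animal, so that p-values measure the spread between these samples.

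Myostatin, the product of Mstn, is a secreted protein of the transforming growth factor beta family that is made mainly by muscle fibres and restrains muscle growth. Like the activins, it binds a type II receptor (ACVR2A or ACVR2B), which recruits and phosphorylates a type I receptor such as ACVR1B (ALK4). The type I receptor then phosphorylates SMAD2 and SMAD3, which enter the nucleus with SMAD4, while SMAD7 is an inhibitory Smad that blocks the type I receptor. Follistatin (Fst) and follistatin-like 3 (Fstl3) bind myostatin and activins outside the cell and keep them from their receptors. Follistatin-like 1 (Fstl1) shares the follistatin domain in its sequence but is a secreted glycoprotein of connective tissue and muscle.

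The promoter of Mstn is shown because Mstn had the largest difference of the 10 genes in the comparisons with DHT among those abundant enough to test, and that of Smad3 because Smad3 was the most abundant of the 10 per length. Each is the 250 bases before the start of the gene in RefSeq, on build GRCm38.p6. Capitals mark matches to the E-box CANNTG, the site of the myogenic helix-loop-helix factors, to the TATA box TATAAA and to the androgen receptor half-site TGTTCT, searched on both strands.
Mstn, chr1:53061390-53061639, plus strand: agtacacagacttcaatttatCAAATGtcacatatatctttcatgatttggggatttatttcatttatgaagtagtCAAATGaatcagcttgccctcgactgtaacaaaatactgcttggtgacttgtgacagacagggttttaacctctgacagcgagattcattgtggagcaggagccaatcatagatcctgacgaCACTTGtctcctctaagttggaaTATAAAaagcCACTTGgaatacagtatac
Smad3, chr9:63757995-63758244, minus strand: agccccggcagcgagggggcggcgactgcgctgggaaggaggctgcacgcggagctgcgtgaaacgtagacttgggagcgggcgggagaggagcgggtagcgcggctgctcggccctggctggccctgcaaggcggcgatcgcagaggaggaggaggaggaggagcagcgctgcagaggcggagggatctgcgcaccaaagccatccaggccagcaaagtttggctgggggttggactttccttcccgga
The Mstn promoter held 4 matches to CANNTG, of which the 2 farther from the start read CAAATG and the 2 nearer ones CACTTG, and 1 match to TATAAA that ran from 29 to 24 bases before the start. The CANNTG match nearest to the start lies 19 to 14 bases before it, downstream of the TATA match. The Smad3 promoter held no match to any of these motifs. Guanine and cytosine made up 38.4% of the Mstn bases, against 69.2% in Smad3, 82% in Acvr2a and 78.8% in Acvr1b.

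Of 32817 RefSeq promoters of the same length, 66.2% held CANNTG, 12.4% held TATAAA and 16.1% held TGTTCT. RefSeq sequence was found for 7 of the 10 genes, and among these Fstl3 alone held the androgen half-site. The full androgen response element, an inverted repeat of the half-site with a spacer of 3 bases, was found in none of the 7 and in 3 of the 32817 promoters (0.00914%). The shorter Smad-binding sequence CAGAC was found 2 times in the Mstn promoter, 2 times in that of Fstl3, and 1 time each in those of Acvr2a and Acvr2b. It was present in 42.2% of all promoters. A match describes the letters in this window only, and the data hold no measure of binding.

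Levels are given as normalised counts, in which the reads of each gene are divided by a scaling factor of the library, here computed over all 9 libraries together. The libraries held 1340209 to 1682235 reads over the listed genes. In muscle of every group the defining fibre genes were abundant: 9 of 10 fibre markers had at least 1676 normalised counts in each library, while the fast troponin Tnnc2 had 1.11 to 4.91. Of the bases in Tnnc2 exons, 74% are shared with exons of a gene on the opposite strand. Control replicate 1, the library with the fewest reads, was the lowest of the 9 libraries for 24.7% of 8631 genes and the highest for 27.3%. These shares were not computed for the other libraries. For those of the 10 genes abundant enough to test, log2 fold changes versus control are given without control replicate 1 too. Those of other pathway genes are mostly given only with it.

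Between genes, levels can be compared only per length, and were divided by the length of each gene's exons in GENCODE M21. On this scale Smad3 was highest, at 46.4 ± 6.43 normalised counts per kb (SD over 9 libraries). Mstn followed at 28.7 ± 7.81, Acvr1b at 27.4 ± 3.31 and Fstl1 at 25.6 ± 6.15. Smad3 lay above Mstn in 9 of 9 libraries, but Mstn lay above Acvr1b in only 6 of 9 and Acvr1b above Fstl1 in 6 of 9, so the order of those 3 genes was not separated from their spread. Acvr2a stood at 10.1 ± 2.48 per kb, with no overlap with Fstl1 above it or Smad7 below it. Smad7 (3.796 ± 0.549) lay above Smad2 (2.48 ± 0.396) in 9 of 9 libraries, although their ranges overlapped. Before division by length Smad2 had the higher mean, at 20.7, 23.0 and 21.8 normalised counts in control, ORX and ORX+DHT. Smad7 had 17.5, 15.8 and 18.2. Their order per kb thus rests on the joined lengths of all annotated exons, 8781 bases for Smad2 and 4521 for Smad7. Which exons this muscle uses was not examined. The least abundant were Acvr2b (1.05 ± 0.772), Fst (0.931 ± 0.404) and Fstl3 (0.254 ± 0.352). Of the 2 activin type II receptors, Acvr2a lay above Acvr2b without overlap of their ranges, and Smad3 transcript exceeded that of its partner Smad2 in every library.

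**Figure D1:**
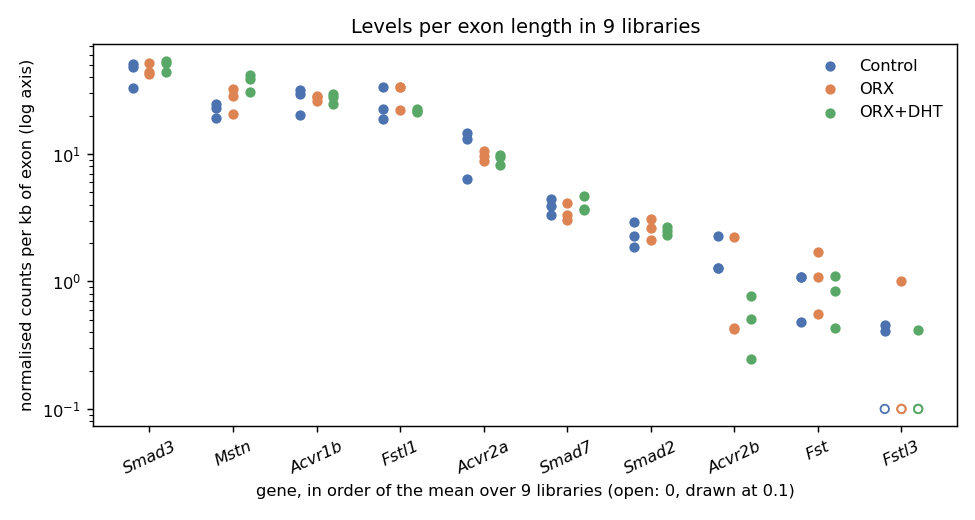
Normalised counts per kb of exon (log axis) of the 10 genes in 9 libraries, coloured by group, with libraries at 0 drawn open at 0.1. Smad3 is highest at 46.4 per kb on average, and Mstn, Acvr1b and Fstl1 form a cluster of overlapping levels at 25.6 to 28.7.

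Of the 10 genes, 7 had a mean of at least 10 normalised counts in all 3 comparisons and entered the tests across all genes: Mstn, Fstl1, Acvr2a, Acvr1b, Smad2, Smad3 and Smad7. None of the 7 was called at an adjusted p under 0.05 by limma in any comparison. In ORX versus control, 0 of 7 were called, beside 0.0579% of 8631 genes (0.0116% higher, 0.0463% lower). None of the 7 had an unadjusted p under 0.05, beside 7.21% of all genes, and for none did the groups lack overlap, beside 6.28% higher and 8.06% lower of all genes (14.3% in all). Between ORX+DHT and ORX, 0 of 7 were called, beside 4.08% of 8770 genes. Mstn and Fstl1, 2 of the 7, had an unadjusted p under 0.05, beside 14.3% of all genes, and for none did the groups lack overlap, beside 10.4% higher and 9.13% lower of all genes (19.5% in all). Between ORX+DHT and control, 0 of 7 were called, beside 0.0349% of 8595 genes (0.0116% higher, 0.0233% lower). Mstn, 1 of the 7, had an unadjusted p under 0.05, beside 6.48% of all genes. The count tests edgeR and DESeq2 on the recovered reads also called 0 of the 7 in each comparison, although DESeq2 gave Smad7 no adjusted p in either comparison with ORX+DHT. The comparisons share libraries, so their values are set side by side and are not independent of each other. Estimates above 0 were found for 5, 3 and 5 of the 7 genes in the order given, beside 48.9%, 50.8% and 49.3% of all genes. The median log2 fold change of the 7 genes was 0.09, -0.01 and 0.05, and that of all genes tested was -0.01, 0.01 and -0.01.

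Mstn (chromosome 1, 53061640 to 53068079, plus strand, GRCm38) is the ligand gene, and the only one of the 7 tested whose groups did not overlap in a comparison. It stood at 66.2, 61.9 and 51.6 normalised counts in control replicates 1 to 3, at 56.0, 87.0 and 76.9 in ORX and at 82.1, 104 and 113 in ORX+DHT. Group means were 59.9 ± 7.47, 73.3 ± 15.8 and 99.7 ± 15.8 (SD, n = 3). All ORX+DHT libraries lay above all control libraries, ORX libraries overlapped both other groups, and ORX replicate 1 lay within the control range. Of all genes tested in ORX+DHT versus control, the groups did not overlap for 14%, and were higher without overlap for 6.86% and lower for 7.12%.

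The log2 fold change of Mstn was 0.72 in ORX+DHT versus control (SE 0.19, 95% interval 0.31 to 1.13, limma unadjusted p 0.00247, adjusted p 0.543), which placed it 39th by p among 8595 genes. Without control replicate 1 it was 0.79 and passed (limma adjusted p 0.0373), and over all alternatives the adjusted p ranged from 0.0373 to 0.977. The log2 fold change in ORX+DHT versus ORX was 0.45 (SE 0.17, 95% interval 0.10 to 0.80, limma adjusted p 0.183), 705th by p among 8770 genes. It ranged from 0.27 to 0.59 over 15 alternatives, with an adjusted p of 0.0368 to 0.522, and 1 of them passed. In ORX versus control it was 0.27 (95% interval -0.18 to 0.72, limma adjusted p 0.794). Without ORX replicate 1 that value was 0.45, without ORX replicate 2 it was 0.14, and without control replicate 3 it was 0.17. Without control replicate 1 it was 0.34 (limma adjusted p 0.567). The mean was thus lowest in control and highest in ORX+DHT, with only the outer groups apart in every library.

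Mstn had 52 to 114 reads in a library. Reads of that number would vary by 13.7%, 10.9% and 9.95% from counting alone in control, ORX and ORX+DHT, and the observed coefficients of variation were 12.5%, 21.6% and 15.9%. Beside Mstn, the summed level of the 10 muscle fibre markers was 275873 to 332992 in control and 226422 to 240443 in ORX, with 247893 to 268429 in ORX+DHT. The fibre sum was highest in control, the group in which the Mstn mean was lowest. In ORX+DHT versus ORX, both the fibre sum and the Mstn mean were higher. Of 9 fibre markers tested there, 2 (Acta1 and Myh1) were called, both higher, beside 2.38% of all genes. The part of fibre content in the Mstn values was not tested, and in bulk tissue fewer cells of a type and less RNA per cell cannot be told apart.

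**Figure D2:**
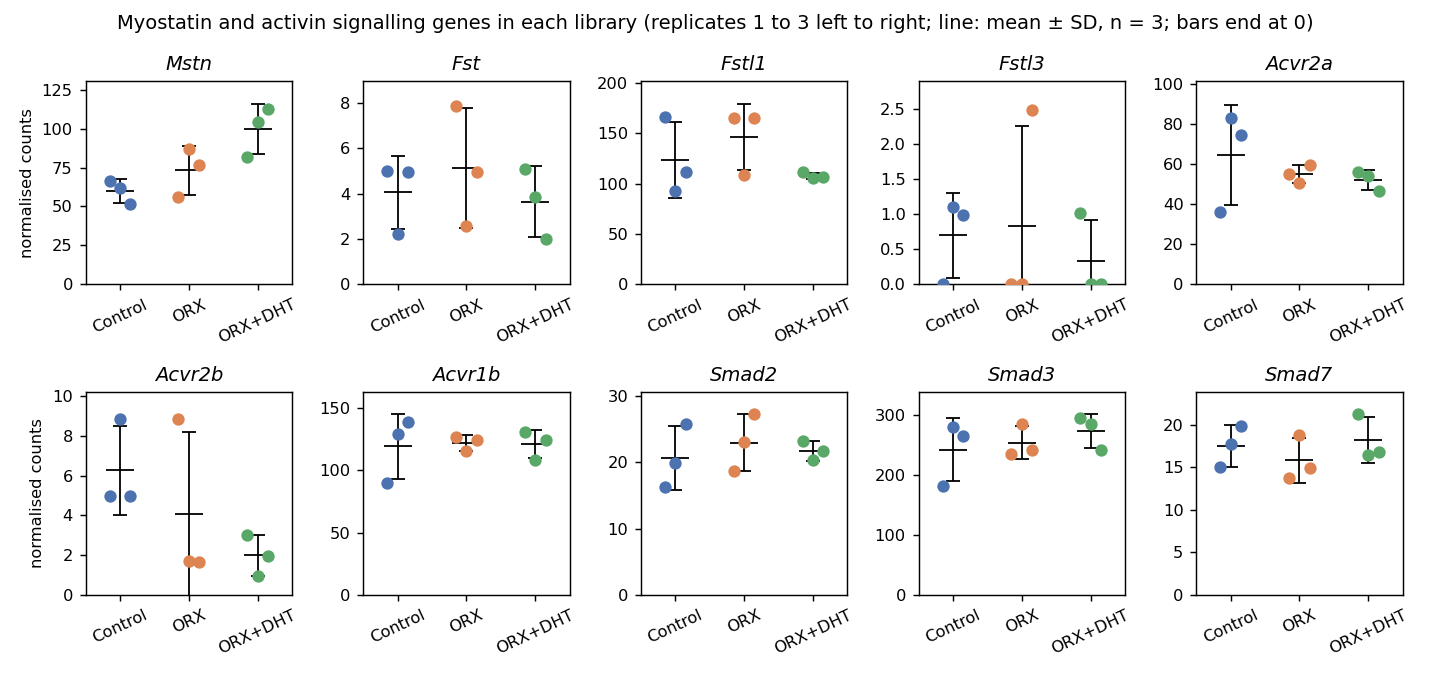
Normalised counts (linear axis from 0) of the 10 genes in each library, with the 3 replicates of each group from left to right and the group mean ± SD as a line. Mstn is above every control library in each ORX+DHT library, Fstl1 is tightly grouped in ORX+DHT, and control replicate 1 is the lowest of 9 for Acvr2a, Acvr1b, Smad2 and Smad3.

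The genes whose pattern was most like that of Mstn were sought among 3795 genes with a mean of at least 50, by Pearson's r of log2 values over the 9 libraries. Mstn is counted among them. Among the 5 highest were 9530068E07Rik (r = 0.912), Sgms1 (0.904), Maco1 (0.897) and Prpf6 (0.889). Sgms1 encodes a sphingomyelin synthase and Prpf6 a splicing factor. Maco1 stood at 49.3 ± 5.01 in control and 53.7 ± 6.63 in ORX, with 70.5 ± 9.21 in ORX+DHT (SD, n = 3). Means in the same order were 101, 114 and 118 for 9530068E07Rik and 98.0, 103 and 109 for Sgms1. For Prpf6 they were 71.7, 70.0 and 85.0, lowest in ORX. These genes were picked as the highest of many, so r describes likeness and is not tested.

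Among the extracellular proteins, Fstl1 (chromosome 16, 37776873 to 37836514, plus strand) was the only abundant gene. It stood at 166, 92.9 and 111 normalised counts in control and 165, 108 and 165 in ORX, with 111, 105 and 107 in ORX+DHT. The ORX+DHT libraries lay close together, while control ran from 92.9 to 166 and ORX from 108 to 165. ORX replicate 2 lay within the ORX+DHT range. The means were 123 ± 38.1, 146 ± 32.8 and 108 ± 3.20 (SD, n = 3), and the coefficient of variation in ORX+DHT, 2.97%, was under the 9.58% that counting alone would give.

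For Fstl1 the log2 fold change in ORX+DHT versus ORX was -0.41 (SE 0.15, 95% interval -0.72 to -0.10, limma unadjusted p 0.0121, adjusted p 0.162). Without ORX replicate 2 it was -0.61 and passed (limma adjusted p 0.0121), and over the alternatives the adjusted p ranged from 0.0121 to 0.642. In ORX versus control it was 0.26 (95% interval -0.26 to 0.78, limma adjusted p 0.818), and without 1 library it ran from 0.08 (control replicate 2, adjusted p 0.934) to 0.49 (control replicate 1, adjusted p 0.303). It was 0.16 without ORX replicate 1 and also without ORX replicate 3, and 0.46 without ORX replicate 2. The value for ORX+DHT versus control was -0.15 (limma adjusted p 0.872), and without control replicate 1 it was 0.08 (limma adjusted p 0.892). Beside these values, the summed level of fibroblast and tendon markers was 795 to 1497 in control and 1880 to 2486 in ORX, with 914 to 1231 in ORX+DHT. The collagen gene Col1a2 was the largest part of this sum, at a mean of 1089 over the 9 libraries, so the sum mainly follows that gene. Of the 8 such markers tested in ORX+DHT versus ORX, 3 (Col1a2, Fmod and Lum) were called, all lower, beside 1.7% of all genes. The other markers tested, Pdgfra, Dpt, Pi16, Tnmd and Dpep1, were not called, and their directions are not given here. Pdgfra and Dpt averaged 19.1 and 40.3 normalised counts, with no library at 0 for either, and Tcf21 is not listed in both tables. The part of these markers in the Fstl1 values was not tested.

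Fst (chromosome 13, 114452290 to 114458951, minus strand) and Fstl3 (chromosome 10, 79777272 to 79782630, plus strand), the inhibitors that bind myostatin directly, were close to the limit of detection. Fst had 4, 2 and 5 reads in control and 8, 3 and 6 in ORX, with 5, 4 and 2 in ORX+DHT. Fstl3 had 0, 1 and 1 reads in control and 0, 0 and 3 in ORX, with 1, 0 and 0 in ORX+DHT. Groups overlapped for both genes in every comparison, and their reads are too few to describe a difference. Of the exon bases of Fstl3, 47.3% are shared with Prss57 on the opposite strand, so its count is uncertain.

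Among the receptors, Acvr2a (chromosome 2, 48814109 to 48903269, plus strand), a type II receptor, stood at 36.2, 82.9 and 74.5 normalised counts in control. It stood at 55.0, 50.3 and 59.6 in ORX and at 55.7, 54.1 and 46.4 in ORX+DHT. Both treated groups lay between control replicate 1, the lowest of the 9 libraries, and control replicates 2 and 3, the highest. The log2 fold change was -0.15 in ORX versus control (95% interval -0.76 to 0.46, limma adjusted p 0.919) and -0.22 in ORX+DHT versus control (95% interval -0.84 to 0.39, limma adjusted p 0.859). Without control replicate 1 it was -0.51 and -0.59, over 1.5 times as large, and still did not pass (limma adjusted p 0.229 and 0.173). Without control replicate 2 it was 0.0753 and -0.0015, and without control replicate 3 it was -0.0048 and -0.0779. The value for ORX+DHT versus ORX was -0.08 (95% interval -0.40 to 0.25, limma adjusted p 0.880).

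Acvr2b (chromosome 9, 119402118 to 119434995, plus strand), the other type II receptor, had 4, 8 and 5 reads in control and 9, 2 and 2 in ORX, with 3, 1 and 2 in ORX+DHT. In normalised counts the controls (4.97 to 8.85) did not overlap the ORX+DHT libraries (0.967 to 3.04), and ORX spanned both. The gene fell under the minimum for testing. In a fit with no minimum the limma adjusted p was 0.807 in ORX+DHT versus control, and the reads, 17 in all 3 controls and 6 in all ORX+DHT libraries, are too few to describe a change.

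Acvr1b (chromosome 15, 101174067 to 101213684, plus strand), a type I receptor of activins and myostatin, stood at 89.9, 129 and 139 normalised counts in control and 127, 115 and 124 in ORX, with 131, 108 and 124 in ORX+DHT. Means were 119 ± 26.0, 122 ± 6.03 and 121 ± 11.6 (SD, n = 3). Its estimate in ORX+DHT versus ORX was the most precise but for that of Smad3, at -0.01 on the log2 scale with a 95% interval of -0.26 to 0.24, which is 0.835 to 1.18 as a ratio (limma adjusted p 0.979). Against control the log2 fold change was 0.05 in ORX and 0.04 in ORX+DHT (limma adjusted p 0.963 and 0.964). Without control replicate 1, the lowest library, these became -0.14 and -0.15, with 95% intervals of -0.41 to 0.13 and -0.42 to 0.12.

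Smad3 (chromosome 9, 63646767 to 63757994, minus strand), which carries the signal to the nucleus, stood at 182, 280 and 265 normalised counts in control and 235, 286 and 242 in ORX, with 295, 285 and 242 in ORX+DHT. Apart from control replicate 1, all 8 libraries lay between 235 and 295. The log2 fold change was 0.11 in ORX+DHT versus ORX (95% interval -0.12 to 0.34, limma adjusted p 0.719), 0.09 in ORX versus control (adjusted p 0.932) and 0.20 in ORX+DHT versus control (adjusted p 0.811). Without control replicate 1 the last 2 were -0.10 and 0.00.

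Smad2 (chromosome 18), the partner of Smad3, stood at 16.2, 19.9 and 25.8 normalised counts in control and 18.7, 23.0 and 27.3 in ORX, with 23.3, 20.3 and 21.7 in ORX+DHT. Its groups overlapped in all comparisons. Smad7 (chromosome 18), the inhibitory Smad and itself a transcriptional target of the pathway, stood at 15.0, 17.7 and 19.9 in control and 13.7, 18.8 and 14.9 in ORX, with 21.3, 16.4 and 16.8 in ORX+DHT. Its estimate farthest from 0 was 0.19 on the log2 scale in ORX+DHT versus ORX (95% interval -0.35 to 0.74, limma adjusted p 0.799). For Smad2 the estimates were 0.15, -0.06 and 0.10 in the 3 comparisons (limma adjusted p 0.912, 0.946 and 0.937), with 95% intervals reaching from -0.54 to 0.73. Without control replicate 1 the estimates versus control were 0.0029 in ORX and -0.06 in ORX+DHT for Smad2, and -0.24 and -0.05 for Smad7. Smad2 had 13 to 33 reads a library and Smad7 12 to 22.

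**Figure D3:**
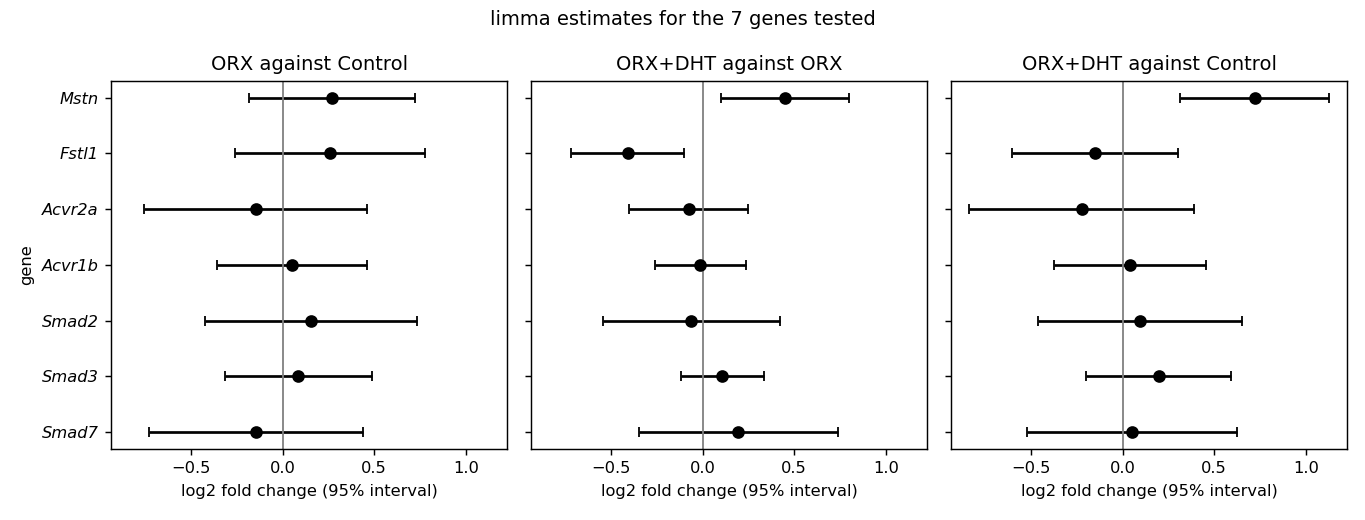
Log2 fold changes of the 7 genes tested in each comparison (points) with limma 95% intervals (bars). In ORX+DHT versus ORX the intervals of Mstn and Fstl1 lie on opposite sides of 0, at 0.10 to 0.80 and -0.72 to -0.10, and those of the other 5 genes include 0.

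Control replicate 1 stood apart for several of these genes at the same time. Its log2 value minus the mean of the other controls was -1.10 for Acvr2a, -0.57 for Acvr1b, -0.58 for Smad3 and -0.46 for Smad2. For Fstl1 this difference was 0.70 and for Mstn 0.22. In the same library the muscle fibre sum was the highest of 9 (332992) and the endothelial sum the lowest (854, against 912 to 1236 in the others), and the fibroblast and tendon sum (1197) lay between those of the other controls. The SD of log2 values in control was 0.64 for Acvr2a, 0.43 for Fstl1, 0.34 for Smad3 and 0.33 for Acvr1b, against a median of 0.30 for all genes. In ORX the same genes had SDs of 0.12, 0.35, 0.15 and 0.07, against a median of 0.19. For Smad2, Mstn and Smad7 the SDs were 0.32, 0.18 and 0.19 in control and 0.26, 0.32 and 0.22 in ORX.

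**Figure D4:**
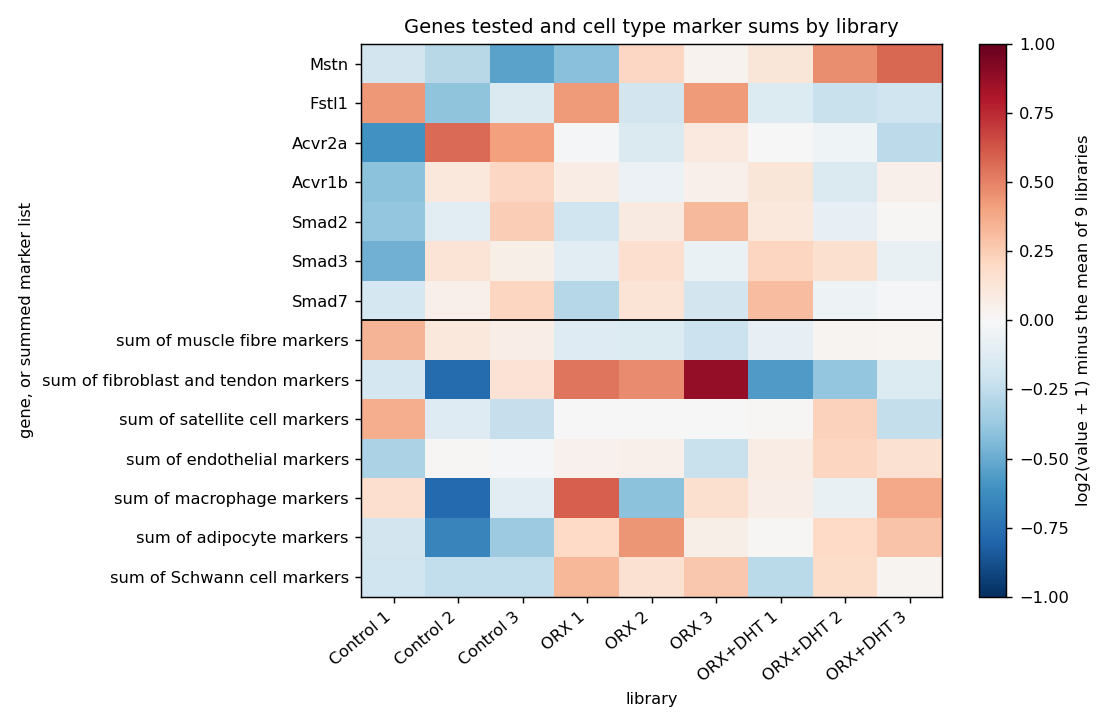
Log2 values of the 7 genes tested (top) and of summed cell type markers (bottom) in each library, as the difference from the mean of the 9 libraries (colour, from -1 to 1). Control replicate 1 is blue for Acvr2a, Acvr1b, Smad2 and Smad3, and the fibroblast and tendon sum is red in all 3 ORX libraries.

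The wider pathway was described by 68 other genes in 5 lists by role, of which 42 were abundant enough to test in each comparison. In ORX versus control 0 of the 42 were called by limma, with 8 higher and 1 lower without overlap between the groups, beside 6.28% and 8.06% of all genes. Called in ORX+DHT versus ORX were 6, 1 higher and 5 lower, beside 2.38% and 1.7% of all genes, and 4 were higher and 11 lower without overlap, beside 10.4% and 9.13%. None was called in ORX+DHT versus control, where 3 were higher and 2 lower without overlap, beside 6.86% and 7.12%. Among the 6 genes were Inha, Fmod, Nedd4l, Col1a1 and Postn, and none of the 6 encodes a receptor or a Smad.

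Among 15 ligand genes, 6 were tested, and 1 fell in ORX+DHT versus ORX. Inha, for the inhibin alpha subunit, which pairs with activin subunits to form inhibin, an activin antagonist, stood at 26.5, 20.5 and 17.4 normalised counts in ORX and 9.12, 7.73 and 3.95 in ORX+DHT, with 30.0, 19.9 and 11.9 in control. Its log2 fold change was -1.55 (limma adjusted p 0.00986, SE 0.33), and the call was lost without ORX replicate 1 (adjusted p 0.0640) and with all 9 libraries in 1 fit (0.0538). The estimate in ORX+DHT versus control was -1.42, without overlap of the groups and without a call (limma adjusted p 0.681). Gdf11, the ligand closest to myostatin in sequence, stood at 21.0 ± 6.22, 22.6 ± 2.17 and 18.1 ± 3.45 in control, ORX and ORX+DHT (SD, n = 3). The activin subunit genes Inhba and Inhbb averaged 0.989 to 3.26 and 1.33 to 2.51 in the 3 groups and were not tested. The median log2 fold change of the ligands tested was 0.13 in ORX versus control and -0.17 in ORX+DHT versus ORX.

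Among 18 extracellular regulators, 9 were tested, and 2 fell in ORX+DHT versus ORX. Fmod encodes fibromodulin, a matrix proteoglycan that binds transforming growth factor beta, and is also on the fibroblast and tendon list. It stood at 154, 249 and 386 normalised counts in ORX and 89.2, 88.0 and 128 in ORX+DHT, with 99.9, 95.1 and 125 in control. The groups did not overlap, and the log2 fold change was -1.28 (limma adjusted p 0.00205, SE 0.23). In ORX versus control, 9 of the 9 regulators had a log2 fold change above 0, beside 48.9% of all genes, with a median of 0.40 against -0.01 for all genes, and none was called. The fibroblast and tendon markers tested, which share Fmod with this list, had a median of 0.71 there, with sums of 795 to 1497 in control and 1880 to 2486 in ORX, and their part was not tested. Fmod had 1.21 there (limma adjusted p 0.265; DESeq2 adjusted p 0.00479). Wfikkn2, for a protein that binds myostatin and GDF11, stood at 30.1 ± 4.04 in control and 35.0 ± 8.44 in ORX, with 23.5 ± 7.92 in ORX+DHT (SD, n = 3).

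Of 12 other receptor genes, 8 were tested and 0 were called in any comparison, with 1 higher and 1 lower without overlap in ORX+DHT versus ORX, beside 10.4% and 9.13% of all genes. Bmpr2, a type II receptor of bone morphogenetic proteins, came nearest there, with a log2 fold change of 0.34 with SE 0.10 (limma adjusted p 0.0800). Of 13 Smads and Smad regulators, 11 were tested and 1 rose in ORX+DHT versus ORX. Nedd4l, for a ubiquitin ligase that acts on activated SMAD2 and SMAD3, stood at 59.9, 51.2 and 73.6 in ORX and 87.1, 105 and 109 in ORX+DHT, with 111, 95.1 and 70.5 in control. Its log2 fold change was 0.71 (limma adjusted p 0.0103, SE 0.15). The call was lost without ORX replicate 2 or ORX+DHT replicates 2 or 3 (adjusted p 0.0683, 0.0542 and 0.0518) and with all 9 libraries in 1 fit (0.114). Smad6, the inhibitory Smad of bone morphogenetic protein signalling, stood at 26.5, 14.5 and 14.9 in ORX and 10.1, 10.6 and 6.92 in ORX+DHT, with 11.2, 13.3 and 9.93 in control. Its log2 fold change of -0.91 in ORX+DHT versus ORX did not pass (limma adjusted p 0.147). That of 0.61 in ORX versus control did not pass either (limma adjusted p 0.695).

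Of 10 genes known as Smad targets in many cell types, 8 were tested, and 2 fell in ORX+DHT versus ORX. Postn, for the matrix protein periostin, stood at 265, 228 and 228 normalised counts in ORX and 42.6, 65.7 and 54.3 in ORX+DHT, with 81.2, 46.4 and 211 in control, a log2 fold change of -2.15 with SE 0.14 (limma adjusted p 3.6e-08). Col1a1, for a chain of type I collagen, stood at 1606, 1557 and 1883 in ORX and 605, 752 and 894 in ORX+DHT, with 753, 522 and 1263 in control. Its log2 fold change in ORX+DHT versus ORX was -1.18 with SE 0.11 (limma adjusted p 2.89e-06). In ORX versus control they had estimates of 1.359 and 1.08 on the log2 scale, short of the threshold (limma adjusted p 0.506 and 0.294), but passed without control replicate 3 (0.00483 and 0.0115). Without control replicate 2 the estimates were 0.87 for Postn and 0.78 for Col1a1 (limma adjusted p 0.547 and 0.523). By DESeq2 Col1a1 passed (adjusted p 0.0433) and Postn did not. Both are matrix genes made largely by fibroblasts. The fibroblast and tendon sums, of which the collagen gene Col1a2 is the largest part, were also higher in every ORX than every ORX+DHT library. Any part of fibroblast content in the Postn and Col1a1 values was not tested. The other 6 targets tested were not called. Id1, Pmepa1 and Ccn2 had log2 fold changes of 0.40, 0.47 and 0.16 in the same comparison, and Id3, Cdkn1a and the collagen gene Col3a1 had -0.37, -0.55 and -0.46 (limma adjusted p 0.0597 to 0.819).

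**Figure D5:**
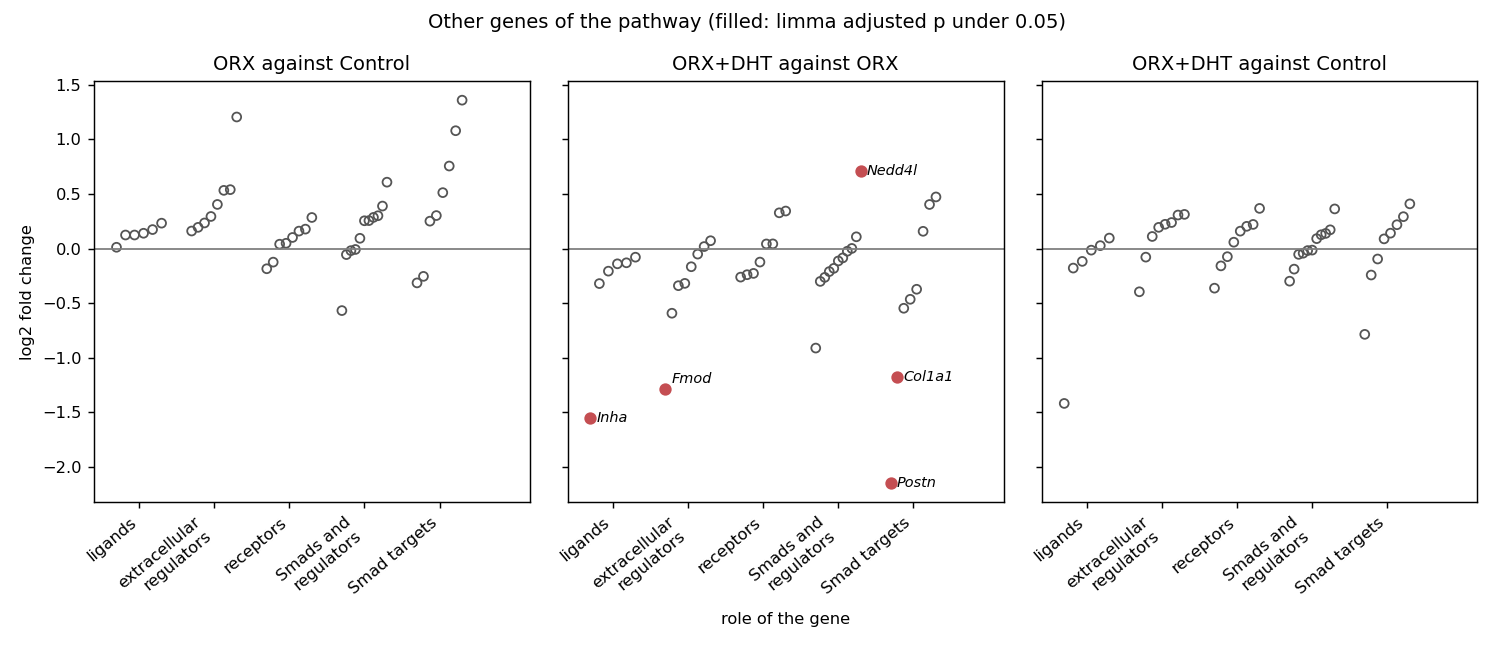
Log2 fold changes of the other pathway genes tested, by role, in each comparison, leaving out 1 extracellular regulator, with genes at a limma adjusted p under 0.05 filled and named. The filled points are all in ORX+DHT versus ORX, where Inha, Fmod, Col1a1 and Postn lie below -1 and Nedd4l above 0.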

How the data were processed

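RNA was measured in 9 libraries made from polyA RNA by a strand-keeping method, per the labels. The 2 tables the authors deposited hold a signal per gene, its read count over a scaling factor that is the same for every gene of a library and was set separately in each table. The submitters' processing notes name Trim Galore 0.6.7, HISAT2 2.2.1, featureCounts 2.0.1, DESeq2 1.36.0 and GRCm38; the strand setting of the counting and the annotation release are not given in the sources used here. Table columns called sham were taken as the control libraries and matched by replicate number, and 0 columns were left unmapped.

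All values (100%, within 0.01 of a whole number) were multiples of 1 step per library, so reads were recovered by division. The labels name no molecular identifiers, and reads may repeat a molecule, so statements on counting cover counting error only. The contrasts of ORX with control and of ORX+DHT with ORX stayed within a table. That of ORX+DHT with control used the 14300 shared genes after median-of-ratios scaling of all 9 libraries, the scale on which levels are printed. Each was fitted to log2(value + 1) by limma 3.58.1 in R 4.3.3 with its trend option, keeping genes that averaged at least 10 over the 6 libraries, with Benjamini-Hochberg adjustment over all genes. Adding 1 before the log makes fold changes of low genes too small. Intervals are at the 95% level, without adjustment.

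Named were the 10 genes, other pathway genes that were called or had groups without overlap and a fold of at least 1.5, cell type markers as counts and sums, and the 5 genes most like Mstn; further genes of the lists (Gdf11, Inhba, Inhbb, Wfikkn2, Bmpr2 and the uncalled Smad targets) were chosen after their values were seen. Of the genes this rule names, 2 are counted but not reported here by name. The genes and lists were chosen with earlier results of these data known. Alternatives were pseudocounts of 0.1 and 10, no minimum, TMM, quantile normalisation, a joint fit of all 9 libraries, a block for the replicate number, omission of each library, edgeR 4.0.16 and DESeq2 1.42.0. On simulated data with 200 genes changed 2-fold, limma recovered 51.5%, 76.0% and 62.0% of them among 8631, 8770 and 8595 genes, for the contrasts in the order given above. Of its calls there, 8.85%, 5.0% and 4.6% were false. The simulated fold is larger than the Mstn folds of 1.21, 1.37 and 1.65, and recovery at smaller folds was not measured.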

Additional observations from a re-analysis of the deposited data

How the results depend on the processing

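Of 187 values of the 7 tested genes with an adjusted p under alternatives that kept all libraries, 185 kept their direction and their side of the threshold, 0 changed sign, and 2 came to pass; DESeq2 gave Smad7 no adjusted p in 2 comparisons. Both of these were in ORX+DHT versus ORX with the replicate number as a block, which called 2 of the 7 genes, Mstn and Fstl1 (limma adjusted p 0.0368 and 0.0421), and 571 genes in all. The numbers were not taken to pair the mice, and the labels do not name the animals. Deviations of same-numbered libraries correlated by 0.063, 0.061 and 0.15 between these groups, and by -0.16 to 0.060 with controls. Differently numbered libraries were not compared, so these values cannot show whether the numbers pair the mice. Of the pathway genes named, Inha and Nedd4l lost their calls in the fit of all 9 libraries. The numbers of genes called, 5 in ORX versus control, 358 in ORX+DHT versus ORX and 3 in ORX+DHT versus control, became 23, 123 and 11 with all 9 libraries in 1 fit and 28, 221 and 13 with DESeq2; with edgeR they were 6, 366 and 4. With no minimum the first was 16, and with quantile normalisation the last was 6. Higher genes made up 58.4% of the 358, and 49.2% after quantile normalisation. In ORX versus control this share went from 20% of 5 genes to 33.3% of 6. In ORX+DHT versus control it went from 33.3% of 3 genes to 66.7% of 6, so both rest on few genes. The cause was not tested.

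With 1 library left out, counts ran from 1 to 51, 223 to 350 and 0 to 66. Control replicate 1 gave the highest in both comparisons with control (51 and 66), control replicate 3 gave 21 and 1, and ORX+DHT replicate 3 gave 0 in the last. Left out in turn, ORX replicates 1 to 3 gave 1, 1 and 2 in the first comparison, and ORX+DHT replicate 1 gave 223 and 1 in the others. By leaving 1 library out, 0 to 1 of the 7 genes were called in ORX+DHT versus ORX (Fstl1) and in ORX+DHT versus control (Mstn). Log2 fold changes that changed sign, none of them called, were in ORX versus control Acvr2a (-0.51 to 0.0753), Acvr1b (-0.14 to 0.17), Smad3 (-0.10 to 0.20) and Inha (-0.20 to 0.43). In ORX+DHT versus ORX they were Acvr2a (-0.14 to 0.0038), Acvr1b (-0.0699 to 0.0664) and Smad2 (-0.20 to 0.0656). In ORX+DHT versus control they were Fstl1 (-0.33 to 0.0843), Acvr1b (-0.15 to 0.16), Smad2 (-0.0577 to 0.26), Smad7 (-0.0631 to 0.14), Col1a1 (-0.40 to 0.24), Fmod (-0.26 to 0.0407) and Nedd4l (-0.0402 to 0.28). Read depth limits Fst, Fstl3 and Acvr2b, which had 0 to 9 reads a library.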
